A study of Mus musculus with 22 samples.

Results

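The spectrin and ankyrin genes examined were 7, chosen by name: *Sptan1*, *Sptb*, *Sptbn1*, *Sptbn4*, *Ank1*, *Ank2* and *Ank3*. A footprint, meaning 1 interval of RNA recovered with the RNA-binding protein hnRNP A1 after ultraviolet crosslinking of spinal cord (CLIPseq), was assigned to a gene when it overlapped the gene's GRCm38 span by at least 1 nucleotide (nt). This rule gave 1207 of the 136207 footprints (0.886%) of 10 mice. All mice were female, wild-type C57Bl/6. 3 were naïve, and 7 had experimental autoimmune encephalomyelitis (EAE), an inflammatory disease of the central nervous system, induced by immunization with the myelin peptide MOG(35-55) together with pertussis toxin and sampled 15 days after clinical onset. The naïve mice are described as age-matched and healthy, and the age at immunization is given as 12 weeks in the treatment protocol and 8 weeks in the series' design text. By clinical score, EAE mice 3, 4 and 7 (1.5, 1.5 and 1.0) formed the mild group, and EAE mice 1, 2, 5 and 6 (2.5, 3.0, 2.5 and 3.0) the severe group, with mouse numbers as in the labels. Values per mouse are given in the order naïve 1, 2 and 3, mild 3, 4 and 7, and severe 1, 2, 5 and 6, or with the mouse named. Each immunoprecipitation used the spinal cord of 1 mouse, a tissue of mixed cell types, so that fewer cells of a type and less RNA per cell cannot be told apart.

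Spectrins are long, rod-shaped proteins built from many copies of a triple-helical repeat, and an α-chain and a β-chain pair side by side to form the flexible struts of the membrane skeleton. Ankyrins are adaptors that hold membrane proteins to β-spectrin through a stack of ankyrin repeats. In neurons the spectrins form a periodic lattice with actin along axons, and ankyrin-G with βIV-spectrin clusters sodium and potassium channels at the axon initial segment and the nodes of Ranvier. hnRNP A1 is a nuclear protein that binds RNA at short motifs containing UAG (TAG in DNA letters) and takes part in splicing.

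The lists of footprints differed in length far more than the genes did in their share of them. Whole lists held from 209 footprints (severe EAE mouse 2) to 31870 (severe EAE mouse 5), and those of severe EAE mice 1 and 6 held 2670 and 673. The 7 genes held 181, 122 and 165 footprints in the naïve group, 144, 107 and 194 in the mild group and 36, 1, 253 and 4 in the severe group. Their share of all covered nt stayed between 0.451% and 1.14%. The files carry no read counts, scores or strand, so the depth behind an individual footprint is unknown, and a value of 0 means that no footprint remained after background subtraction, not that RNA was absent. Markers of microglia and leukocytes (4 of 5 with footprints) had 0 covered nt in every naïve mouse against a summed 810 to 1568 nt in mild and 0 to 1433 nt in severe EAE mice, with *Cd74*, *Lyz2* and *C1qa* in several EAE mice and *Aif1* at 0 in all; their part in the results for the spectrins and ankyrins was not tested. For the tissue check, 5 of 6 neuronal markers (*Chat*, of motor neurons, was at 0), 4 of 4 oligodendrocyte markers and 3 of 3 astrocyte markers had footprints. *Slc4a1* and *Epb42*, which define red blood cells, where *Ank1* and *Sptb* are the standard ankyrin and β-spectrin, were at 0 in all mice. Of the 8 red blood cell markers 5 had footprints, globin genes and *Alas2*, which summed to 0 to 461 nt in naïve, 129 to 1093 nt in mild and 0 to 1462 nt in severe EAE mice.

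To compare coverage between the genes, covered nt within annotated exons were divided by exon length, taken over all annotated transcripts with untranslated parts included. *Sptan1* held 194.6 covered nt per 1000 nt of exon as the mean over 10 mice, which ranked 24 of 7159 protein-coding genes tested. *Sptbn1* followed with 100.8, *Sptbn4* with 88.2, *Ank2* with 86.8 and *Ank3* with 58.6, while *Sptb* and *Ank1* had 47.8 and 46.0. All lay above the median protein-coding gene at 11.7. *Sptan1* was the highest of the 7 in 9 mice, and in severe EAE mouse 2 the only footprint of the group lay in *Sptbn1*. The order below *Sptan1* changed from mouse to mouse: *Sptbn1* was second in naïve mice 1, 2 and 3, *Sptbn4* in mild EAE mice 3 and 4, and *Ank2* in mild EAE mouse 7 and severe EAE mouse 5. On this scale *Sptan1* and *Sptbn1* differed beyond their spread among naïve mice (239 ± 68.2 and 139.7 ± 15.6, mean ± SD, n = 3, ranges not overlapping), whereas the neighbours *Sptbn4* (82.4 ± 21.7) and *Ank2* (93.5 ± 34.8) overlapped, as did *Ank1* (56.4 ± 39.2) and *Sptb* (57.2 ± 32.1).

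*Sptan1* encodes αII-spectrin, the α-chain of nearly all cells other than red blood cells, and lies at chr2:29965560-30031451 on the plus strand. It carried 265 footprints, of which 256 had their midpoint in coding sequence and 6 (2.26%) in an intron. Covered nt were 3867, 2344 and 4000 for the naïve group, 4303, 2721 and 3361 for the mild group, and 995, 0, 5330 and 193 for the severe group. Naïve and mild mice overlapped throughout, and severe EAE mice 1, 2 and 6 were low while mouse 5 was the highest of all. The mean was 3404 ± 920 (SD, n = 3) in naïve and 2415 ± 2075 (n = 7) in EAE mice, a difference of −989 nt that did not pass the two-sided exact permutation test (p = 0.433, adjusted p = 1 over 9195 genes). None of the 7 genes passed this test at p under 0.05, against 4.52% of all genes tested (416 of 9195, 415 of them lower in EAE).

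The coding footprints of *Sptan1* often fell on the same exons in several mice. Among 62 merged regions, formed by joining overlapping footprints of different mice, 46 (74.2%, against 16.1% in the whole series) were footprinted in 3 or more mice and 9 in 7 or more. The series also holds intronic and intergenic regions and genes with far less coverage. Footprints covered 404 ± 118 (naïve) and 445 ± 105 (mild) of every 1000 coding nt of *Sptan1*. How much overlap such coverage gives by itself was not tested. The most shared region of all 7 genes was chr2:29998154-29998248, with 93, 95 and 93 covered nt in the naïve group, 27, 20 and 85 in the mild group, and 93 and 44 for severe EAE mice 5 and 6. It holds no TAG. One coding region showed the opposite pattern: chr2:29996737-29996955 was covered over 218, 150 and 218 nt in naïve mice 1, 2 and 3 and over 0 nt in all 7 EAE mice. The recurrent intronic region at chr2:29975089-29975234, 3154 nt from the nearest exon, was footprinted in 5 mice, and the 116 nt that all 5 shared hold TAG 7 times. These sequences are shown, plus strand and 5′ to 3′, because they are the most shared exon, the stretch found in the naïve mice alone and a dense cluster of TAG, with capitals marking TAG, AGGT and their overlaps TAGGT and AGGTAG.
Sptan1 coding, chr2:29998154-29998248: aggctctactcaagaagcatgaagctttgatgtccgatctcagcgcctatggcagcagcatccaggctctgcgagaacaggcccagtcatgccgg
Sptan1 coding, naïve mice, chr2:29996806-29996954: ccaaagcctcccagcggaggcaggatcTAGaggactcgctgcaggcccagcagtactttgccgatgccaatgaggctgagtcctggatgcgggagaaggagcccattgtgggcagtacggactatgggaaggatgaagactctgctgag
Sptan1 intron, chr2:29975107-29975222: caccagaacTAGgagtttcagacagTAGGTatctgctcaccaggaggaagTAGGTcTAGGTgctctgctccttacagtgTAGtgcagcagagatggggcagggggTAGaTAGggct

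*Sptbn1* encodes βII-spectrin, the widely expressed β-chain that pairs with αII-spectrin along axons, and lies at chr11:30099395-30268175 on the minus strand. It carried 178 footprints, 143 in coding sequence, 13 in untranslated exons and 20 (11.2%) in introns. Covered nt were 2558, 2907 and 3350 for the naïve group, 1340, 2061 and 4619 for the mild group, and 882, 112, 4707 and 0 for the severe group. The naïve mice lay close together and inside the range of the EAE mice (2938 ± 397, n = 3, against 1960 ± 1976, n = 7; difference −978 nt, exact permutation p = 0.433).

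*Sptbn1* held 3 of the 6 regions with footprints in each naïve mouse but no EAE mouse, all coding: chr11:30104485-30104674 (99, 190 and 175 nt in naïve mice 1, 2 and 3), chr11:30109089-30109153 (65, 64 and 64 nt) and chr11:30123795-30123837 (35, 43 and 24 nt). It also held the most recurrent region without naïve footprints, chr11:30114676-30114920, a coding region that held 52, 220 and 245 covered nt of the mild group and 155, 112, 245 and 0 nt of the severe group. This was the single spectrin or ankyrin footprint in the 209-footprint list of severe EAE mouse 2. The part of the EAE region common to 5 mice and the longest of the naïve stretches are shown on the gene's strand, with capitals for AGGT, and neither holds TAG.
Sptbn1 coding, EAE mice, chr11:30114823-30114873: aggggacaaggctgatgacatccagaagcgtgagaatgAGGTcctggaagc
Sptbn1 coding, naïve mice, chr11:30104576-30104674: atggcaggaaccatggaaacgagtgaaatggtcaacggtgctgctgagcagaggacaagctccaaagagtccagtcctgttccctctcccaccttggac

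*Sptb* encodes βI-spectrin, the red blood cell β-chain that is also made in muscle and some neurons (chr12:76580488-76710547, minus strand). It had 57 footprints, 51 of them coding and 1 intronic. Covered nt were 1040, 400 and 785 for the naïve group, 570, 316 and 1344 for the mild group, and 1516 for severe EAE mouse 5 with 0 in severe EAE mice 1, 2 and 6. The groups overlapped (742 ± 322 in naïve, 535 ± 649 in EAE mice, exact permutation p = 0.658). Of its 35 merged regions, 6 (17.1%) were footprinted in 3 or more mice and none in more than 4, against 16.1% of the 82220 regions of the whole series in 3 or more mice.

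*Sptbn4* encodes βIV-spectrin of axon initial segments and nodes of Ranvier (chr7:27356383-27447686, minus strand). Covered nt were 1635, 1033 and 1069 for the naïve group, 1704, 1456 and 1137 for the mild group, and 1898 for severe EAE mouse 5 with 0 in the other severe EAE mice. The mean was 1246 ± 338 nt in naïve and 885 ± 860 nt in EAE mice (exact permutation p = 0.517). Its 100 footprints were divided unevenly between exons and introns across groups: 6 of 34 naïve footprints were intronic, against 0 of 47 in mild and 0 of 19 in severe EAE mice. When exonic nt alone were counted, all 3 mild EAE mice lay above all 3 naïve mice, as did 4.46% of the 7295 genes tested on this measure, with 1410 ± 268 against 788 ± 208 nt (exact permutation p = 0.1, the smallest that 3 against 3 mice allow, adjusted p = 1). Most of the naïve intronic signal was the region chr7:27420522-27420925, covered over 404, 323 and 255 nt in naïve mice 1, 2 and 3 and over 0 nt in every EAE mouse. Its shared core lies 1444 nt from the nearest exon, is 95.8% repeat-masked, and is shown on the gene's strand because it is the intronic region found in naïve mice alone. Capitals mark TAG, and the CA-rich repeat holds ACACAC 11 times, counting overlapping matches.
Sptbn4 intron, naïve mice, chr7:27420545-27420686: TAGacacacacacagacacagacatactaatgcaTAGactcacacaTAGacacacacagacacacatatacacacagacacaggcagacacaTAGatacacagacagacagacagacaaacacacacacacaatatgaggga

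*Ank1* encodes ankyrin-R, first known from red blood cells and also present in some neurons (chr8:22974844-23150497, plus strand). It had 79 footprints, 70 of them coding. Covered nt were 1358, 465 and 741 for the naïve group, 733, 277 and 1034 for the mild group, and 287, 0, 2127 and 0 for the severe group. All groups overlapped (855 ± 457 in naïve, 637 ± 758 in EAE mice, exact permutation p = 0.692). As with *Sptb*, the share of regions in 3 or more mice, 7 of 45 (15.6%), was near the 16.1% of the series, and no region reached more than 4 mice.

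*Ank2* encodes ankyrin-B, which is spread along axons and is also found in glia and heart (chr3:126921612-127499350, minus strand). It carried the most footprints, 315, and its covered nt ranked 14 of 9195 genes without correction for length. Covered nt were 5821, 4301 and 5851 for the naïve group, 3759, 3844 and 8165 for the mild group, and 1172, 0, 11503 and 0 for the severe group. Severe EAE mouse 5 was the highest of all and the other severe EAE mice lay below every naïve mouse (5324 ± 886 in naïve, 4063 ± 4353 in EAE mice, exact permutation p = 0.642). It had the largest intronic share of the 7 genes, 86 of 315 footprints (27.3%).

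*Ank3* encodes ankyrin-G, the organizer of the axon initial segment and node (chr10:69398773-70027438, plus strand). Covered nt were 5476, 1874 and 4784 for the naïve group, 3054, 1555 and 4449 for the mild group, and 426, 0, 5945 and 150 for the severe group. It showed the largest of the 7 differences between EAE and naïve mice, −1819 nt (4045 ± 1911 in naïve, 2226 ± 2324 in EAE mice), which was still within the spread (exact permutation p = 0.242, adjusted p = 1). Of its 213 footprints 43 (20.2%) were intronic.

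**Figure D1:**
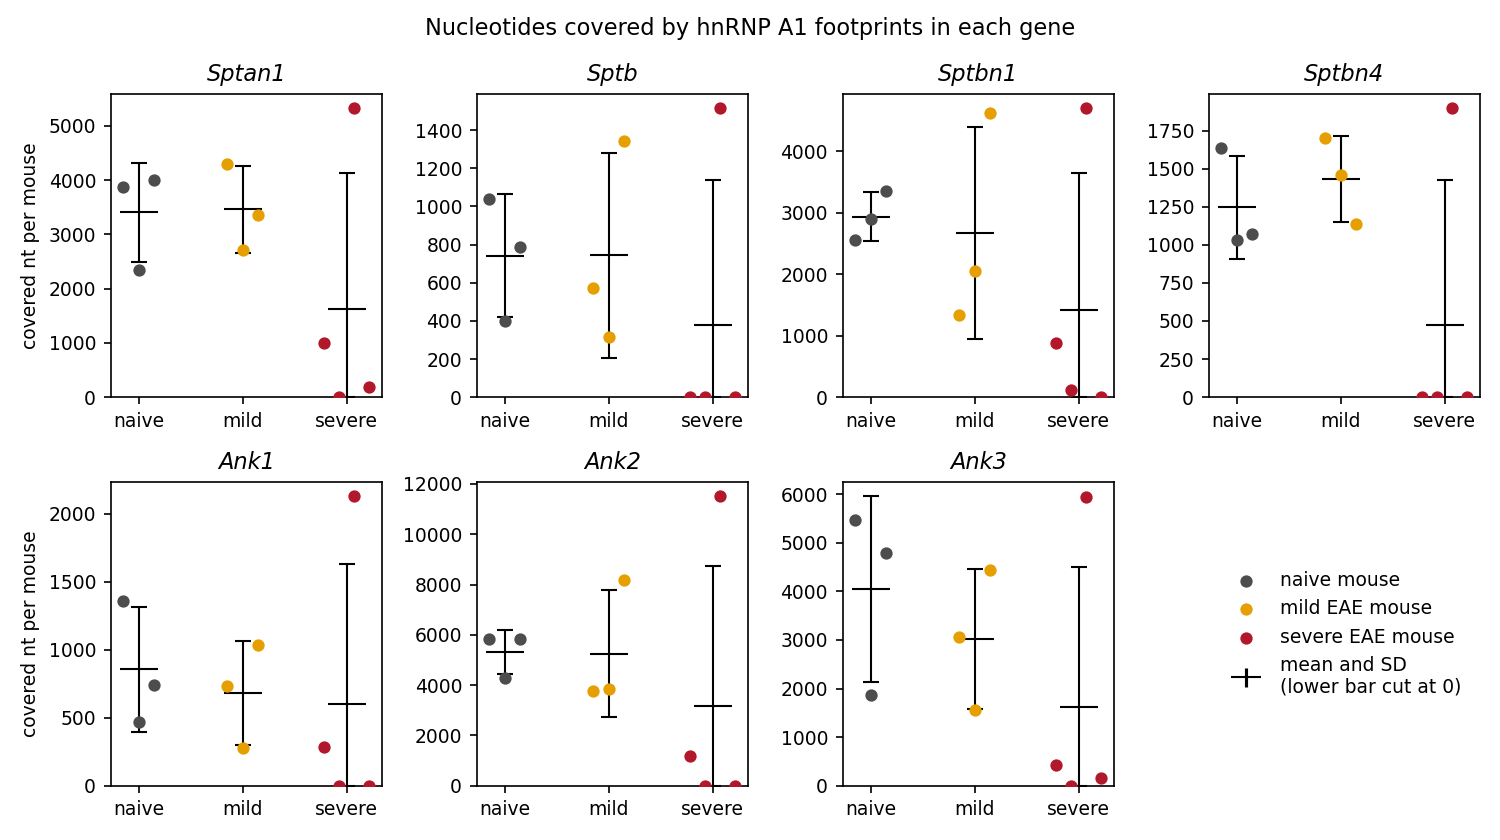
Covered nt per mouse (vertical axis, linear, a scale of its own in each panel) in the naïve, mild EAE and severe EAE groups, 1 panel per gene and 1 point per mouse, with bars for mean and SD (lower bar cut at 0). Naïve and mild EAE mice overlap in all 7 panels, and in the severe group mouse 5 is the high point, at 11503 nt in *Ank2*, while mice 1, 2 and 6 lie below every naïve mouse.

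The same comparison was made within each severity group. For severe EAE against naïve mice, all 7 differences were negative, from −251 nt (*Ank1*) to −2414 nt (*Ank3*), with exact permutation p from 0.229 to 0.743, and no gene of the 7 was among the 2.52% of all genes called. For mild EAE against naïve mice, differences ran from −1025 nt (*Ank3*) to 187 nt (*Sptbn4*) with exact permutation p from 0.5 to 1, where 7.69% of all genes reached 0.1, the smallest value possible. The median difference over all 9195 genes was −20.2 nt for EAE, −40 nt for severe EAE and 2.67 nt for mild EAE, and no gene of the whole table passed an adjusted p under 0.05 in these comparisons. Unadjusted, 416 genes passed p under 0.05 in EAE and 232 in severe EAE. All 3 comparisons share the naïve mice.

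The direction of these differences depended on the 3 short lists. Without EAE mice 1, 2 and 6, a choice made after the values were seen, the EAE mean exceeded the naïve mean for *Sptan1* (by 525 nt), *Sptb* (195), *Sptbn1* (243), *Sptbn4* (303), *Ank1* (188) and *Ank2* (1493), and stayed below it for *Ank3* alone. As nt per 1000000 covered nt of the mouse, which scales for list length, none of the 7 passed p under 0.05 (5.27% of all genes did in severe EAE). *Sptan1* and *Sptbn1* were on average higher in EAE (by 301 and 434, exact permutation p = 0.65 and 0.667). Short lists weigh heavily here: the highest *Sptbn1* value, 4598, came from 1 footprint of 112 nt in severe EAE mouse 2. The highest *Sptan1* value, 3014, came from 10 footprints in severe EAE mouse 1. On that scale *Sptbn4* was lower in all 4 severe EAE mice than in all 3 naïve mice (115 ± 229 against 576 ± 139, exact permutation p = 0.0571, adjusted p = 0.63), a pattern shared by 7.28% of genes, and it rests on 3 severe EAE mice at 0. Per 1000000 mapped unique reads, by contrast, 5 of the 7 genes passed in EAE against naïve mice, all lower: *Sptbn1*, *Ank2* and *Ank3* at exact permutation p = 0.0167 and *Sptan1* and *Ank1* at 0.0333 (adjusted p from 0.189 to 0.268). *Ank2* then ran from 1059 to 1834 nt per 1000000 reads in naïve mice and from 0 to 1054 in EAE mice, and *Ank3* from 799 to 996 and from 0 to 545, so that naïve and EAE mice did not overlap. On the same scale 13.4% of all genes passed, 1233 of 1234 of them lower in EAE. The share of all genes without overlap between naïve and EAE mice was not counted on this scale. By the study's totals, naïve mouse 2 had the fewest mapped unique reads of the immunoprecipitations and severe EAE mouse 5 the most, which raises the scaled values of the first and lowers those of the second.

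Both *Ank2* and *Ank3* contain an exceptionally long exon that is included in large neuronal forms of ankyrin-B and ankyrin-G and skipped in others, and the footprints were laid along these exons. The *Ank2* exon spans 6198 nt at chr3:126941610-126947807. It was covered over 39.4%, 8.18% and 44.2% of its length in the naïve group, 15.7%, 17.3% and 51.5% in the mild group, and 4.84%, 0%, 59.8% and 0% in the severe group. The spread within each group exceeded the distance between the groups. Footprints of the 10 mice together reached 81.9% of the exon. Its mean coverage of 24.1% was the second highest of the longest exons of 53 genes, where the median was 4.82%. These genes have a coding exon of 3000 nt or more and footprints in 6 or more mice. Genes with little coding sequence outside their longest coding exon were left out of the 53.

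The remaining coding sequence of *Ank2* was covered to a similar degree, 19.6% on average, and the long exon was the more covered of the 2 in 5 of the 8 mice with coding footprints. The *Ank3* exon spans 7674 nt at chr10:69986089-69993762 and was covered over 25.8%, 9.54% and 20.4% in the naïve group, 10.1%, 7.58% and 28.7% in the mild group, and 30.8% for severe EAE mouse 5, with 0 in severe EAE mice 1, 2 and 6. Its mean of 13.3% matched the 13.9% of the other *Ank3* coding sequence. In contrast, the longest coding exon of *Sptbn4* (934 nt) had no footprint in any mouse, although the rest of its coding sequence was footprinted in 7 mice. The longest exons of *Sptb* (871 nt) and *Ank1* (538 nt) were reached in 2 mice and 1 mouse.

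**Figure D2:**
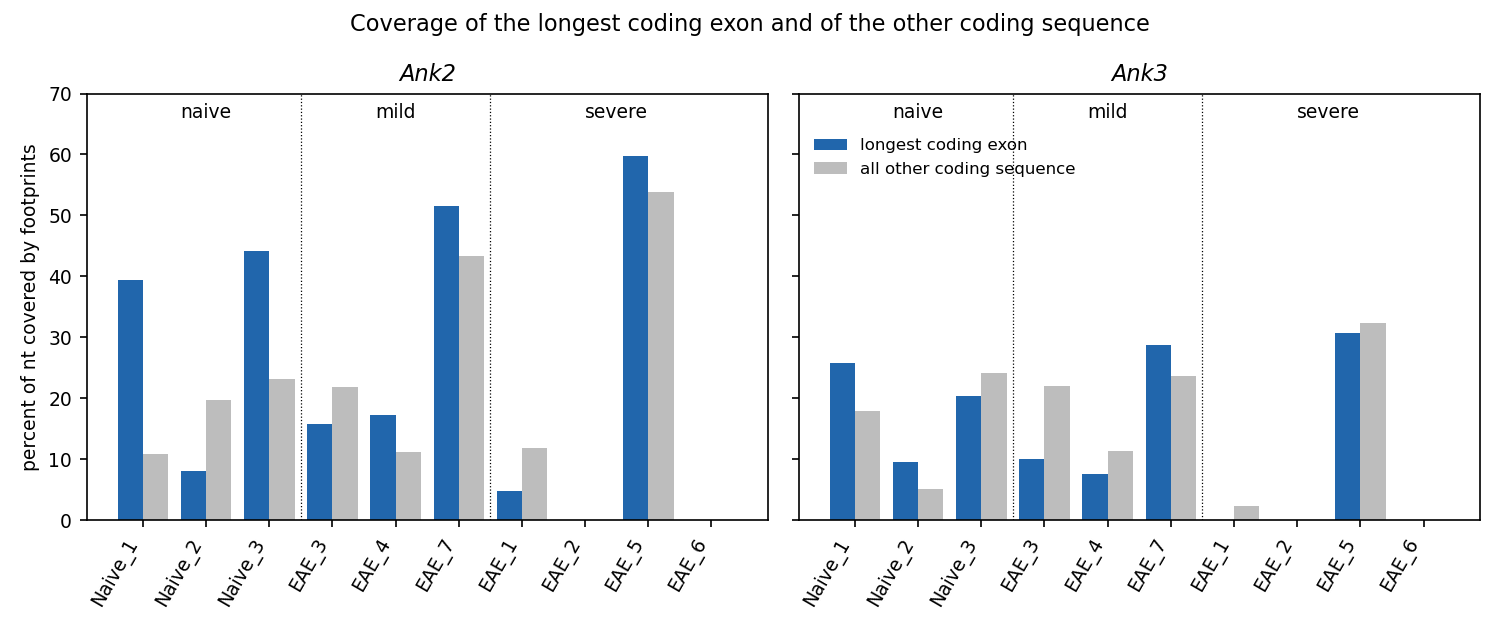
Percent of nt covered by footprints (vertical axis) in the longest coding exon (blue) and in all other coding sequence (grey) of *Ank2* and *Ank3*, for each mouse. In *Ank2* the long exon reaches 59.8% in severe EAE mouse 5 and 51.5% in mild EAE mouse 7, and neither gene shows an exon that is consistently above the rest of the coding sequence.

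Within the *Ank2* exon, 18 stretches were covered in 2 or more mice, together 65.2% of its length, and 5 stretches (536 nt) in 6 mice. Naïve mice shared 9 stretches there, mild EAE mice 9 and severe EAE mice 2. Coverage did not concentrate at either end, with means over the 10 mice of 27.2%, 19.2% and 25.9% in the 5′, middle and 3′ parts of equal length. Within the *Ank3* exon, 14 stretches (35.1%) were covered in 2 or more mice and 1 stretch of 104 nt in 6 mice. This stretch, chr10:69989293-69989396, is shown because it is the most shared place in the long exon. It holds TAG 3 times and, marked in the same capitals, AGGT once, overlapping a TAG.
Ank3 long exon, chr10:69989293-69989396: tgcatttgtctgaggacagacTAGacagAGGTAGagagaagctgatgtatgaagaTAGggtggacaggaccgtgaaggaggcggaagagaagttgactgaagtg

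**Figure D3:**
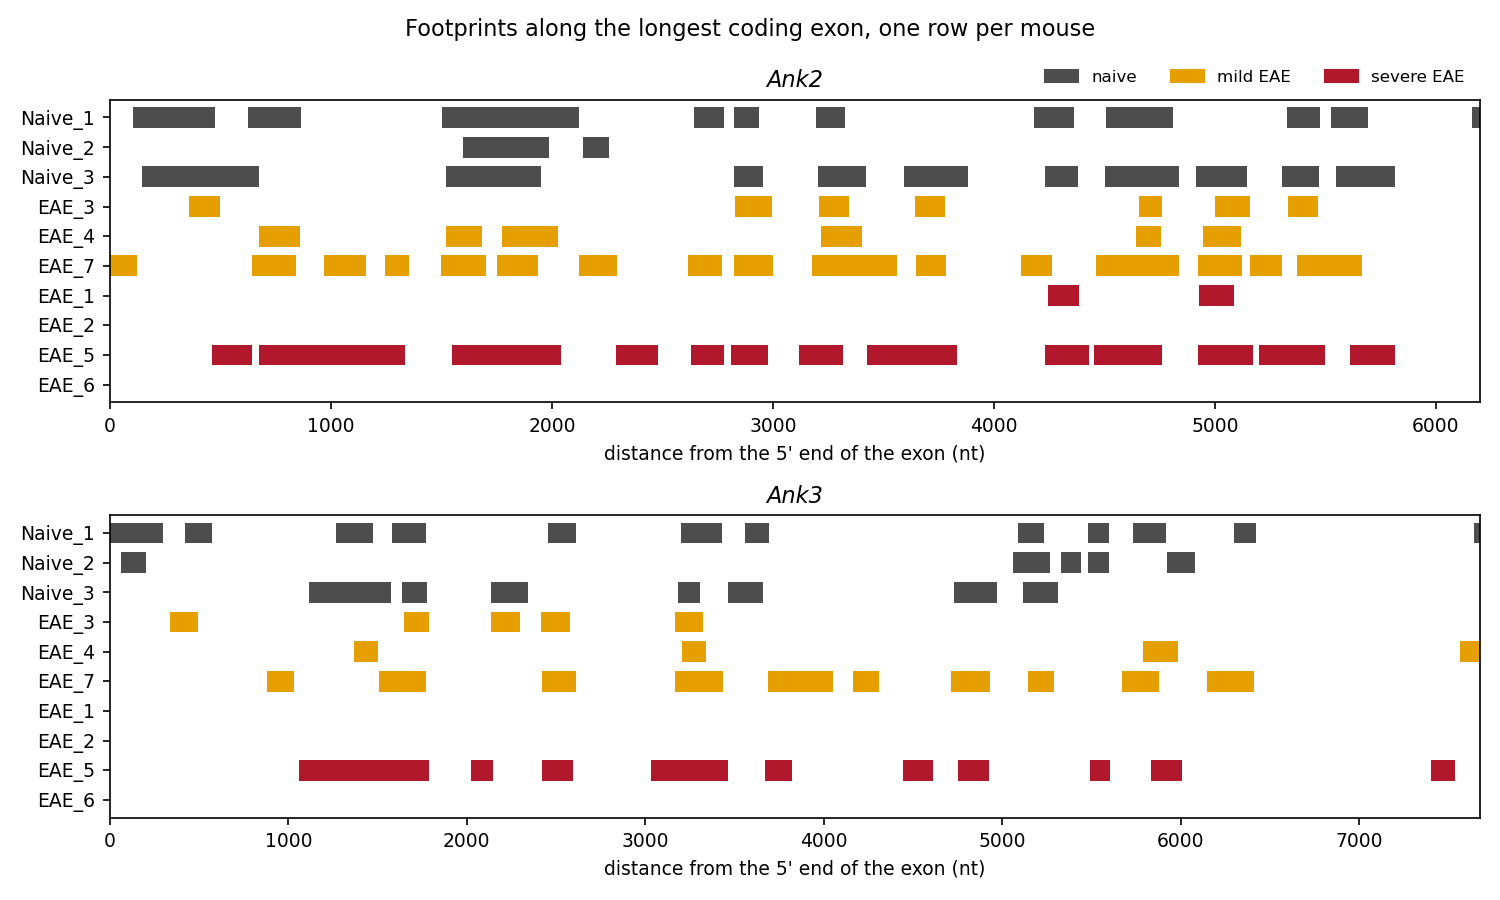
Footprints along the longest coding exon of *Ank2* (above) and *Ank3* (below), 1 row per mouse, with distance from the 5′ end of the exon in nt on the horizontal axis and colour for the group. Footprints are spread along both exons, and the rows of severe EAE mice 2 and 6 are empty.

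An exon of a protein-coding transcript that lies wholly inside an intron of another protein-coding transcript of the same gene is called alternative here. They make up 29.6% of the exonic nt of the 7 genes in the annotation, and 59.6% of those of *Ank2* and *Ank3*, against 5.19% in other protein-coding genes. Of the exonic nt covered, alternative exons held 32.9%, 23.5% and 36.1% in the naïve group, 23.3%, 23.0% and 36.6% in the mild group, and 16.9%, 0%, 32.8% and 0% in the severe group. Apart from severe EAE mice 2 and 6, the 7 genes thus lay on both sides of the share that their annotation holds. In the same mice other genes lay between 5.77% and 7.13%, above their annotated 5.19%. In severe EAE mice 2 and 6 other genes were at 4.64% and 5.53%. EAE minus naïve was −11.9 percentage points on average, and −1.92 points without EAE mice 1, 2 and 6. In the 8 mice with such footprints, the 2 long exons held from 51.3% to 86.3% of the alternative nt.

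Beyond the long exons and the exons that overlap them, *Ank3* had the most alternative exons with footprints, 33 of 57 annotated ones, of which 9 were footprinted in 5 or more mice. *Ank2* had 15 of 23 footprinted, none in more than 4 mice, *Ank1* 9 of 16, *Sptan1* 3 of 4, *Sptbn4* 1 of 3 and *Sptbn1* 0 of 2, and *Sptb* has none annotated. By the definition used, a run of neighbouring exons counts as alternative when another annotated transcript skips the run as a whole. Whether single exons of such a run are skipped on their own was not tested. Annotated forms of an exon that overlap each other are counted separately here. The 16 of *Ank1* form 8 separate blocks, and chr10:69850106-69850148 and chr10:69850106-69850204 of *Ank3* are both among the 9. A single ankyrin repeat is encoded by about 99 nt, and exons of 99 or 198 nt have the length of whole repeats. Footprints of any of the 10 mice lay in 15 of 17 such coding exons of *Ank3*, 16 of 20 of *Ank2* and 12 of 17 of *Ank1*. In 2 or more mice the numbers were 11, 11 and 6. These exons were chosen by length alone, and the share of other coding exons with footprints was not counted. In *Ank3* the 99-nt exon at chr10:69898228-69898326 was covered in all 3 naïve mice (99, 34 and 99 nt), in mild EAE mice 3 and 7 and in severe EAE mouse 5 (99 nt each). The 99-nt exon at chr10:69867385-69867483 was covered in naïve mouse 3 (73 nt), in all 3 mild EAE mice (99, 69 and 99 nt) and in severe EAE mice 1 and 5 (88 and 92 nt). No naïve mouse other than 3 had a footprint in the second exon, and mild EAE mouse 4 had none in the first. The alternative 60-nt exon of *Sptan1* at chr2:30001100-30001159 was covered in naïve mice 1 and 3 (52 and 60 nt), mild EAE mice 3 and 7 and severe EAE mouse 5 (60 nt each), that is, from end to end in 4 of 5 mice. These 3 exons are printed as the alternative exons described here, with TAG and AGGT in capitals.
Ank3 exon, chr10:69898228-69898326: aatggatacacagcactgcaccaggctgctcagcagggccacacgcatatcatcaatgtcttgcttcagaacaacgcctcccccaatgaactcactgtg
Ank3 exon, chr10:69867385-69867483: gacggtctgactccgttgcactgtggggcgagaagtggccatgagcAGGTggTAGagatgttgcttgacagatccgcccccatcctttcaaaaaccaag
Sptan1 exon, chr2:30001100-30001159: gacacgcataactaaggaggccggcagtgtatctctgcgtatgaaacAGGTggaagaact

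Many exonic footprints followed exon boundaries. Of 1033 exonic footprints of the 7 genes, 498 began exactly at an annotated exon start, 494 ended exactly at an exon end and 188 (18.2%) did both, most often in *Sptan1* (80 of 257, 31.1%). The authors aligned the assembled sequences with splicing allowed, and the part of that step in these ends was not tested.

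By annotation class, 990 of the 1207 footprints had their midpoint in coding sequence, 43 in untranslated exons, 7 in exons of noncoding transcripts and 167 (13.8%) in introns. The intronic share of footprints was 18.8%, 24.6% and 14.5% for the naïve group and 6.94%, 11.2% and 11.3% for the mild group, with no overlap between these groups. In severe EAE mice 1 and 5 it was 5.56% and 12.6%, and severe EAE mice 2 and 6 held only 1 and 4 footprints, of which 0 and 1 were intronic. The means were 19.3% ± 5.04 (SD, n = 3) in naïve and 10.4% ± 7.78 (n = 7) in EAE mice, and no test was made. EAE minus naïve was −8.92 percentage points, or −8.77 without EAE mice 1, 2 and 6. The same order held in all protein-coding genes, with 26.9% to 41.3% intronic in naïve, 10.2% to 22.5% in mild and 16.8% to 34.2% in severe EAE mice, so it was not particular to spectrins and ankyrins. Over pooled footprints, the gap between naïve and mild EAE mice was widest in *Ank3* (28.1% and 9.86%), *Sptbn4* (17.6% and 0%) and *Ank2* (35.8% and 22.7%), and *Ank1* alone ran the other way, on few footprints (7.14% and 13.6%, 2 of 28 and 3 of 22).

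**Figure D4:**
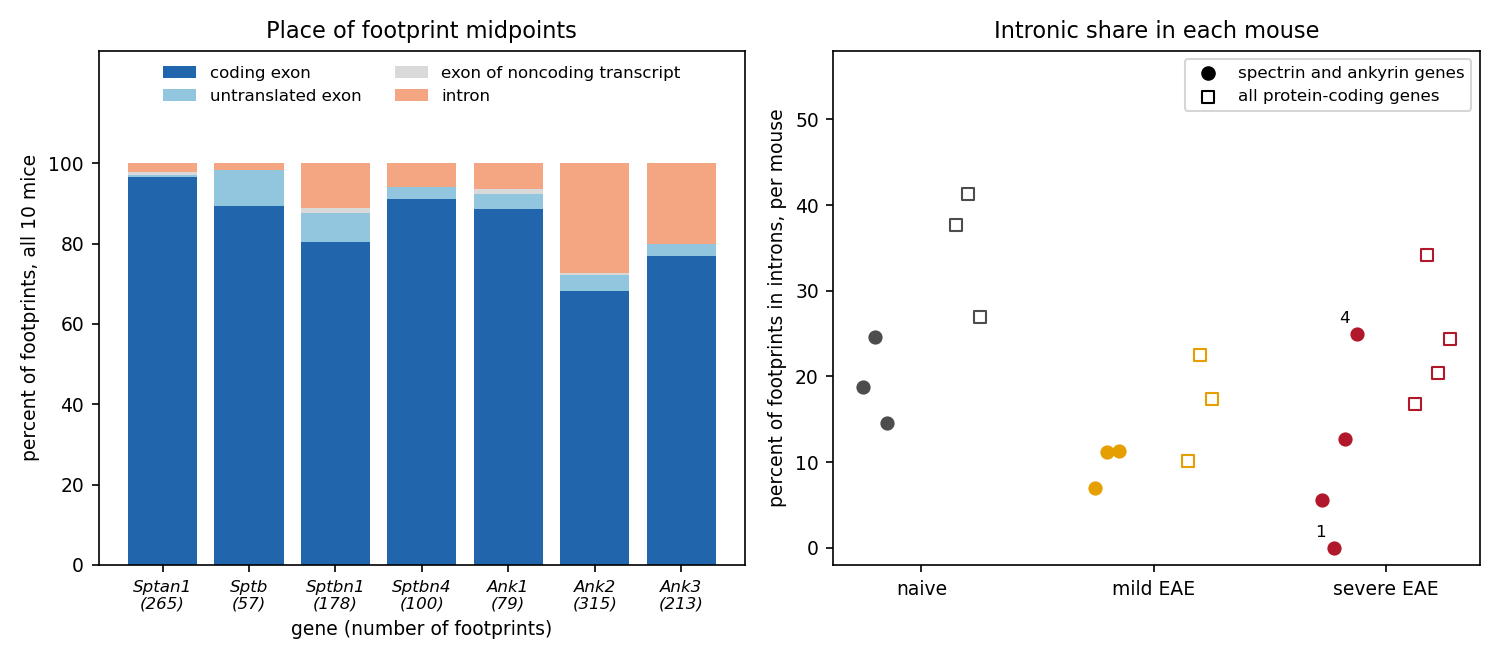
Left, percent of footprints of each gene by the place of the midpoint, all 10 mice pooled, with the number of footprints in brackets. Right, percent of footprints in introns per mouse for the 7 genes (filled circles) and for all protein-coding genes (open squares); the numbers 1 and 4 beside severe EAE points are the footprints behind them. Naïve mice lie at 14.5% to 24.6% and mild EAE mice at 6.94% to 11.3%.

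Several intronic regions recurred in as many mice as the exonic ones. In *Ank2* the region chr3:126982381-126982569 was footprinted in all naïve mice (175, 184 and 172 nt), all mild EAE mice (177, 137 and 130 nt) and severe EAE mouse 5 (147 nt). In *Ank3* the region chr10:69846781-69847000 was covered in naïve mice 1 and 3 (213 and 197 nt), all mild EAE mice (196, 179 and 209 nt) and severe EAE mice 5 and 6 (192 and 150 nt). Neither region separated the groups. Their cores, the parts common to 7 mice, lie 491 and 3136 nt from the nearest exon and are 93% and 84% repeat-masked, with ACACAC 7 and 11 times. They are shown on the gene's strand, with TAG in capitals, since they are among the most recurrent intronic places of the family and the *Sptbn4* region printed above, found in naïve mice alone, is of the same CA-rich kind.
Ank2 intron, chr3:126982436-126982564: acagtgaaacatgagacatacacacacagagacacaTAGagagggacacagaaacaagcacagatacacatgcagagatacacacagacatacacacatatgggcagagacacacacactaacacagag
Ank3 intron, chr10:69846820-69846969: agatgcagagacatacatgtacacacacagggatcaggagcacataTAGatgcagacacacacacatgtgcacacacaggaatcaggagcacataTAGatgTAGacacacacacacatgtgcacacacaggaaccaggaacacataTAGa

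Among footprints of 100 to 200 nt read on the strand of the gene, 86.8% of the 129 intronic ones of the 7 genes held TAG, close to the 84.8% of 24353 intronic footprints of all genes. In exonic footprints the shares were 52.3% of 419 and 53.6% of 35093. AGGT was held by 30.2% of the intronic footprints of the 7 genes against 45.3% in all genes, and ACACAC, a motif chosen after the sequences were seen, by 26.4% against 11.2%. On the opposite strand TAG was found in 66.7% of these intronic footprints against 71.8% in all genes, and in 70.4% of the exonic ones against 66.2%, above the shares on the strand of the gene. TAG and AGGT overlap in TAGGT and AGGTAG and are then counted for both. Footprints of different mice at 1 place repeat the same sequence, so these shares describe fewer places than footprints.

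Recurrence was examined next, over 445 merged regions of the 7 genes. Of these, 195 were footprinted in 1 mouse, 184 in 3 or more, 81 in 5 or more and 20 in 7 or more. Of the 184 regions in 3 or more mice, 140 had footprints in all 3 groups, against 7691 of 13272 in the whole series. The severe group was often present there through mouse 5 alone. Regions with footprints in each naïve mouse but no EAE mouse numbered 6 (3.26%, against 1.51% of 13272 such regions in the whole series), namely the *Sptan1* region, the 3 *Sptbn1* regions and the *Sptbn4* region given above, and chr3:126940072-126940164 in *Ank2* (75, 93 and 81 nt), a coding region. Regions in no naïve mouse and 3 or more EAE mice numbered 26 (14.1%, against 17.7% in the series), of which 9 were in *Ank2*, 6 in *Sptbn4*, 5 in *Sptan1*, 4 in *Sptbn1* and 2 in *Ank1*. The naïve share was above that of the series and the EAE share below it, both on small counts and without a test.

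Only 2 of the regions without naïve footprints reached 5 EAE mice (1.09%, against 0.633% in the series): the *Sptbn1* region above and chr3:126929722-126929888 in coding sequence of *Ank2*. The latter was covered over 109, 109 and 165 nt in the mild group and 53 and 165 nt in severe EAE mice 1 and 5. No footprint there came from a naïve mouse or from severe EAE mice 2 and 6. The stretch shared by 4 of these mice is shown beside the *Ank2* stretch of the naïve mice, both on the gene's strand, with TAG and AGGT in capitals.
Ank2 coding, EAE mice, chr3:126929780-126929886: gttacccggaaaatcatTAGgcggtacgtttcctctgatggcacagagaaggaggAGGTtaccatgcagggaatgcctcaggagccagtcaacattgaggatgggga
Ank2 coding, naïve mice, chr3:126940072-126940146: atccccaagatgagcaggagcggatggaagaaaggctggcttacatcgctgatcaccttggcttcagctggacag

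**Figure D5:**
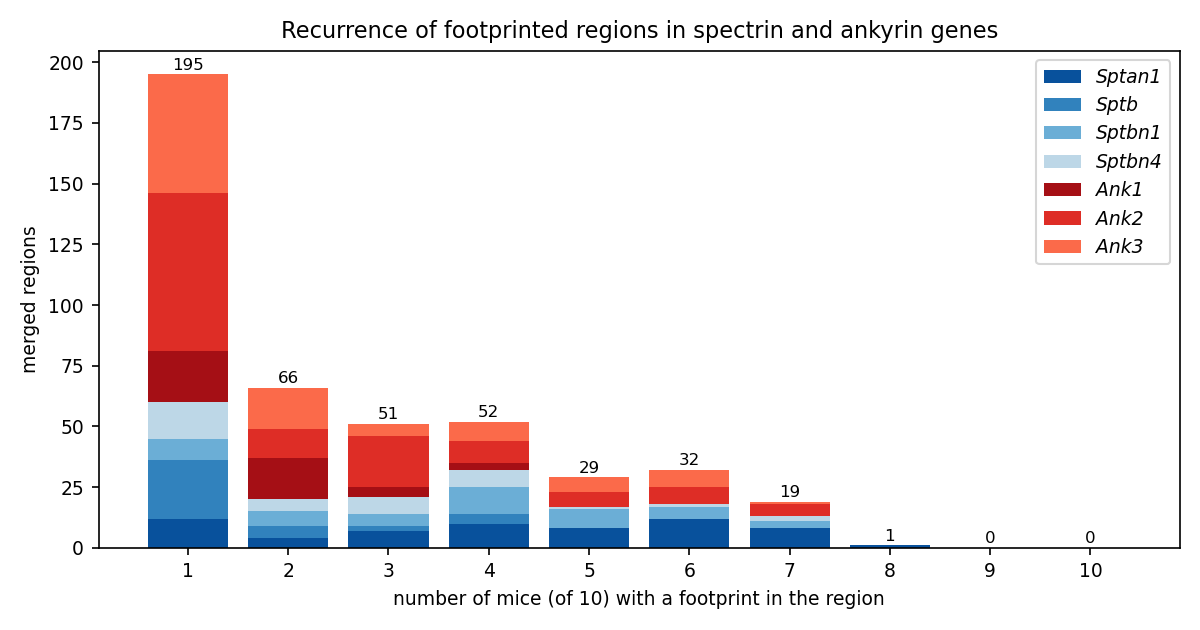
Number of merged regions (vertical axis) by the number of mice, of 10, with a footprint in the region (horizontal axis), stacked by gene. The tallest bar is that of regions found in 1 mouse, 195 of 445, and the only region in 8 mice is in *Sptan1*.

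Stretches of at least 2 nt covered in 2 or more mice of the same group were then listed. Naïve mice shared 123, mild EAE mice 127 and severe EAE mice 34 over the 7 genes. By gene, naïve, mild and severe mice shared 36, 37 and 11 in *Sptan1*, 25, 23 and 7 in *Sptbn1*, 30, 26 and 10 in *Ank2* and 19, 20 and 3 in *Ank3*. In *Sptbn4* the numbers were 6, 13 and 0, in *Sptb* 2, 4 and 0 and in *Ank1* 5, 4 and 3. *Sptbn4* was thus the gene with the widest gap between mild and naïve mice. All 3 numbers depend on single mice. The severe number was 1 without severe EAE mouse 5 and 5 without severe EAE mouse 1, the naïve number 50 without naïve mouse 1 and 52 without naïve mouse 3, and the mild number 63, 80 and 62 without mild EAE mouse 3, 4 and 7. Of the naïve stretches 59 (48.0%) overlapped a mild stretch, and 59 of the mild stretches (46.5%) a naïve one. Of the severe stretches 15 (44.1%) overlapped a naïve and 19 (55.9%) a mild stretch. In *Sptan1* the overlap was larger, with 23 of 36 naïve stretches (63.9%) and 23 of 37 mild stretches (62.2%) overlapping the other group's, whereas in *Ank1* and *Sptb* no naïve stretch overlapped a mild one. By class, 108 of the naïve, 117 of the mild and 32 of the severe stretches were coding and 14, 7 and 1 intronic. Stretches in alternative exons numbered 25, 28 and 4, of which *Ank3* held 14, 17 and 2.

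Other proteins of the membrane skeleton were examined from a list of 13 genes (the remaining spectrins, adducins, proteins 4.1, dematin and tropomodulins). Footprints were present in 12 of them. Of the 11 tested, 0 passed p under 0.05 in EAE against naïve mice by the exact permutation test. *Epb41l1*, a neuronal protein 4.1, had the most, with 1115, 867 and 1200 nt for the naïve group, 997, 1892 and 1981 for the mild group, and 320, 0, 3709 and 0 for the severe group, and these groups overlapped.

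A second list held 12 ankyrin-bound and initial segment or nodal proteins, all with footprints. Of 11 tested, 1 passed, near the 4.52% of all genes, namely *Kcnq3*, a subunit of the M-type potassium channel that ankyrin-G anchors at the initial segment. Its covered nt were 3337, 1294 and 1090 for the naïve group, 132, 284 and 613 for the mild group, and 0, 0, 2104 and 0 for the severe group. All EAE mice but mouse 5 lay below all naïve mice (difference −1459 nt, exact permutation p = 0.0417, adjusted p over 0.05 as for all genes). *Nfasc*, the neurofascin bound by ankyrin-G, was covered in 9 mice, from 1602 to 3457 nt in naïve and from 1506 to 3568 nt in mild EAE mice (exact permutation p = 0.917 for EAE against naïve).

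Genes whose covered nt varied most like each member over the 10 mice were named by Pearson's correlation among 2236 genes with footprints in 6 or more mice, as a description. For *Sptan1* these were *Safb2* (0.99) and *Wnk2* (0.98), for *Sptbn1* *Ntrk2* and *Ryr3* (0.98 each), for *Sptb* *Ap3b2* and *Phlpp1* (0.99 each) and for *Sptbn4* *Sidt2* (0.97) and *Sash1* (0.96). For *Ank1* they were *Syn1* and *Rab6b* (0.98 each), for *Ank2* *Bhlhb9* and *Gm14308* (0.99 each) and for *Ank3* *Gm45234* and *Ap3b2* (0.97 each). The points share the length of each mouse's list, with which the members themselves correlated at 0.80 (*Sptbn4*) to 0.99 (*Ank2*).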

How the data were processed

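CLIPseq of hnRNP A1 was available for 10 mice, grouped from the labels by treatment and clinical score. The deposited intervals, per the labels and the study's methods, came from reads demultiplexed with bcl2fastq 2.19.0.316, trimmed with fastp, assembled with rnaSPAdes, aligned to GRCm38 with minimap2 2.17 in spliced mode, cleared of input and IgG background and merged with bedtools. Each interval has a chromosome, a start and an end and no read count, so depth per footprint is unknown. How much of a gene was covered therefore follows assembly and list length as well as binding. The other 12 libraries (10 inputs and 2 IgG pools) were not analysed here.

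Footprints were intersected with GENCODE M21 gene spans, and each was classed by its midpoint (coding, untranslated, noncoding exon, intron). An alternative exon lay wholly inside an intron of another protein-coding transcript of its gene. Covered nt per mouse were compared by exact permutation of the difference of means, two-sided, over 9195 genes with footprints in 2 or more mice, with Benjamini-Hochberg adjustment over all. The smallest p is 0.00833 for 7 against 3 mice, 0.0286 for 4 against 3 and 0.1 for 3 against 3. Each p is the share of all regroupings of the mice whose absolute difference of means is at least as large as the observed one. All 7 members were named. Members, gene lists and tests were chosen with earlier results of these data known. Code was tested on simulated data. Python 3.11.15, numpy 2.4.6, scipy 1.17.1, pysam 0.24.0 and matplotlib 3.10.9 were used. Sequences were read from the GRCm38 genome. Alternatives were nt per 1000000 covered nt, per 1000000 mapped unique reads (library totals as listed with the study), log2(nt + 1), footprint numbers and length limits, exonic nt, genes without overlap, a replicate block and leaving out each mouse. Mice that share a number between groups were treated as unpaired. Their deviations from the group means correlated at 0.0248 (number 3), −0.0317 (number 1) and 0.140 (number 2). The lists of EAE mice 1 and 2 are short, so these values cannot exclude a pairing.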

Additional observations from a re-analysis of the deposited data

Results flagged for a closer look

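In the severe EAE group, mouse 5 stood apart from the other 3 mice by Dixon's criterion for 4 samples in 5 of the 7 genes. Its covered nt were 1516 in *Sptb*, 1898 in *Sptbn4*, 2127 in *Ank1*, 11503 in *Ank2* and 5945 in *Ank3*, with gaps of 1, 1, 0.865, 0.898 and 0.928 of the range. *Sptan1* and *Sptbn1* had gaps of 0.813 each and fell only slightly short of the criterion. The 5 marked genes are therefore not set apart from *Sptan1* and *Sptbn1*. The criterion marks about 1 in 20 groups by chance, but the genes share each mouse's list, so that the 5 marks are not independent. The share of all genes it would mark was not computed. In *Sptb* and *Sptbn4* the other 3 mice were at 0, which fixes the gap at 1. Mouse 5 also had the longest list of all mice, 31870 footprints, and the other severe lists held 2670, 209 and 673. The paper likewise describes this mouse as the outlier of its severe group. It reports that the animal had been in remission shortly before the experiment ended. Its reproducibility analysis of called peaks also flagged the sample.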

How the results depend on the processing

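No member was called in EAE or severe EAE against naïve mice under any alternative except nt per mapped read in EAE, where 5 were. Across alternatives, the exact permutation p ran from 0.0167 to 0.972 for EAE, 0.0571 to 1 for severe EAE and 0.1 to 1 for mild EAE. The number of genes called in EAE (416) was 1234 per mapped read, 137 on exonic nt, 205 without EAE mice 1, 2 and 6 (chosen after seeing the data), and 323 to 762 when each mouse was left out, 762 without mouse 5. For severe EAE (232) it was 485 per covered nt of the mouse, 826 per mapped read, 109 on exonic nt, and 0 to 0 when each mouse was left out, since fewer mice cannot reach p under 0.05. For mild EAE (707) it was 422 on exonic nt and 717 to 1131 with each mouse left out, 1131 without mild EAE mouse 4.

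Directions turned as follows, and the cause was not tested. Per covered nt, EAE minus naïve was 301 for *Sptan1* and 434 for *Sptbn1*, severe minus naïve 140 and 735, and mild minus naïve 31.8 for *Sptbn1* and 365 for *Ank2*. The 434 and 735 of *Sptbn1* include severe EAE mouse 2 at 4598, from 1 footprint. Per mapped read, mild minus naïve was −271 for *Sptan1*, −63.0 for *Sptb* and −81.9 for *Sptbn4*. On exonic nt, EAE minus naïve was 79.0 for *Sptbn4* and mild minus naïve 406 for *Ank2*, which was 247 without overlapping genes and 3.33 in footprints. On the log2 scale, mild minus naïve was −0.14 for *Sptb*. Without EAE mice 1, 2 and 6, EAE minus naïve was 525 (*Sptan1*), 195 (*Sptb*), 243 (*Sptbn1*), 303 (*Sptbn4*), 188 (*Ank1*) and 1493 (*Ank2*). With each mouse left out, *Ank1* ran from −466 to 33.9 in EAE and −759 to 0.5 in severe EAE, positive without naïve mouse 1, and mild minus naïve ran from −472 to 428 (*Sptan1*), −299 to 215 (*Sptb*), −1238 to 402 (*Sptbn1*), −368 to 78.3 (*Ank1*) and −1523 to 680 (*Ank2*).

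Shared stretches with each mouse left out numbered 50 to 88 (naïve), 62 to 80 (mild) and 1 to 34 (severe), and 1 severe stretch was shared by 3 mice. The intronic and alternative-exon differences kept their sign throughout. With the replicate block over mice 1, 2 and 3 (smallest p 0.25), EAE minus naïve was −1638, −552, −2160, −678, −515, −3681 and −2885 nt in *Sptan1*, *Sptb*, *Sptbn1*, *Sptbn4*, *Ank1*, *Ank2* and *Ank3*, and severe minus naïve over mice 1 and 2 was −2608, −720, −2236, −1334, −768, −4475 and −3462 nt; it changed no call. Mild and naïve mice share 1 number only. Without reads per interval, coverage cannot be weighed by depth.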

Other observations

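Other annotated genes lie inside or across the spans of the members, and the intervals, which carry no strand, cannot be assigned to one gene there. In *Ank1*, 10 footprints overlapped the antisense gene *Gm15816* and 2 the pseudogene *Gm15815*. In *Ank2*, 6 overlapped *Gm16958*, an antisense gene, and 6 overlapped *Gm42972*, on the strand of *Ank2*. In *Sptbn1*, 5 overlapped *Gm8098*, and in *Sptbn4*, 4 overlapped *Gm44924* and 3 *Gm20479*. *Plekhg3*, which overlaps *Sptb*, had none of the footprints of *Sptb*.

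Footprints of the members had a median length of 112 nt (14 to 1028), against 119 nt over all footprints. The longest, 1028 nt in mild EAE mouse 7, filled the recurrent *Sptbn1* intronic region chr11:30254394-30255421, which was covered over 142, 0 and 230 nt in naïve mice 1, 2 and 3, 0 and 150 nt in mild EAE mice 3 and 4, and 135 and 167 nt in severe EAE mice 1 and 5.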
